A study of Mus musculus with 12 samples.

Results

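The interferon response genes are a set of 39 listed genes that cells switch on when interferon binds its receptors, and they were followed here in mouse muscle satellite cells from fetal life to old age. A gene was taken as measured where the array carried a probe set annotated to that symbol alone, and the brightest such probe set stood for the gene. On this rule 35 of the 39 were measured, among 19938 measured genes in all. Isg15, Gbp2 and Igtp were covered only by probe sets shared with another gene, no probe set was annotated to Ifi44, and these 4 genes were not analysed here. The rule names the genes individually, and measured values entered it in the choice of the brightest probe set. The list was chosen with earlier results of these data known.

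Satellite cells are the stem cells of skeletal muscle, marked by the transcription factor Pax7. Every group consisted of ZsGreen-positive cells sorted from muscle of mice heterozygous for Pax7-ZsGreen, a green fluorescent reporter of Pax7, with the strain given as C57BL/6 for all samples. The fetal group (E17.5) was taken from forelimbs and hindlimbs, with 4 mice pooled. The adolescent group (postnatal day 21, 6 mice pooled), the adult group (2 to 3 months, 8 mice pooled) and the aged group (older than 1 year, 8 mice pooled) were taken from hindlimbs. The fetal group thus differed from the others in limb as well as age. Sorting gates were set for each age, with wild-type SV129 mice as the negative control for the reporter. Each group had 3 arrays. The labels do not say that these were independent pools, and the p-values therefore reflect array-to-array spread that could be technical.

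Interferons bind receptors whose Janus kinases phosphorylate STAT proteins, which enter the nucleus and switch on a shared set of genes. For type I interferon the active complex contains Stat2 and Irf9 and binds a promoter element called the interferon-stimulated response element (ISRE). The products sense foreign nucleic acid, block viral entry, RNA translation and replication, and tag proteins with ubiquitin-like modifiers. Many of them have a basal level without infection.

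To show the element in this set, promoters were read from RefSeq (build GRCm38.p6), covering 250 bases before to 50 after the annotated start. The letters searched were GAAANNGAAA, or TTTCNNTTTC on the opposite strand, where N is any base. They occurred in 1131 of 32851 promoters (3.44%) and, counted by gene, in 3.99% of 27025 genes. A promoter was available for 27 measured members, and 14 of these (51.9%) held the letters. A match is a description of the letters and not a measured binding site. The 9 members with a match lying wholly before the start were Gbp3 (chr3:142559979-142560034, plus strand), Ifitm2 (chr7:140955978-140956027, minus strand), Bst2 (chr8:71537567-71537622, minus strand), Stat2 (chr10:128270256-128270305, plus strand), Irgm1 (chr11:48871421-48871470, minus strand), Slfn5 (chr11:82951927-82951976, plus strand), Rsad2 (chr12:26456543-26456592, minus strand), Ifit3 (chr19:34583353-34583436, plus strand) and Ifit1 (chr19:34640765-34640833, plus strand). Their windows are shown because they place the element in a transcription factor, several effectors, both GTPases and Slfn5, each written 5′ to 3′ on the strand of the gene, with the matched letters in capitals and up to 20 bases on either side, cut at the start of the gene.
Gbp3: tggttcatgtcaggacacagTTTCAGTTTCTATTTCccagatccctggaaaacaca
Ifitm2: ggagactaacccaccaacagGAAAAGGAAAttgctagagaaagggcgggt
Bst2: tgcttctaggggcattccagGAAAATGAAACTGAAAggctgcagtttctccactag
Stat2: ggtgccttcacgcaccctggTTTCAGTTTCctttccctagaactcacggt
Irgm1: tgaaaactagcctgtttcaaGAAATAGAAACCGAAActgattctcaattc
Slfn5: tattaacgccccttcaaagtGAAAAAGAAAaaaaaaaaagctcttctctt
Rsad2: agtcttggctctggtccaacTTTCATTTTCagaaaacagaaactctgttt
Ifit3: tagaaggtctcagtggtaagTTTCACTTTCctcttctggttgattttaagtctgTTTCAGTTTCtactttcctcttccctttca
Ifit1: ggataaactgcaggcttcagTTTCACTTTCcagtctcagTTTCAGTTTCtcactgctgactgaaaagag
Gbp3, Bst2 and Irgm1 held overlapping pairs of matches, and Ifit1 and Ifit3 each held a separate pair. In Ifih1, Ddx58, Trim21, Ifitm3 and Eif2ak2 the match lay past the start, and those letters are not shown. A second motif, the gamma-activated sequence TTCNNNGAA, which reads the same on both strands, was found in 8 of the 27 members (29.6%) and in 8.30% of all promoters, or 9.55% of genes. In Bst2 and Ifitm3 it shared bases with a match to the first motif. Members with a match to the first motif did not all share a stage pattern: Slfn5 and Rsad2 moved in opposite directions between fetal and adult cells. Whether stage patterns go with these letters was not tested.

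The values are log2 signals after RMA, a method that corrects, normalizes and summarises array probes, so that a difference of 1 is a doubling. The 10 satellite cell markers averaged 9.63 to 9.68 on the fetal arrays and 10.60 to 10.86 on the later arrays. All 10 rose from fetal to adolescent cells, by a median of 0.78, where 10.1% of all genes rose. Pax7 itself averaged 10.45 ± 0.08 in fetal and 11.63 ± 0.11 in aged cells (SD, n = 3). Olfactory and vomeronasal receptors, which these cells should not express, served as a floor. Their mean over 1205 probe sets was 3.79 to 3.91 on 9 arrays, and it was raised to 4.46 and 4.50 for adult replicates 2 and 3 and to 4.30 for aged replicate 1. Replicates 2 and 3 of a stage correlated across genes at 0.996 to 0.999 and replicate 1 with either of them at 0.972 to 0.993. Adult replicate 1 also stood apart in the proliferation marker Mki67, at 9.28 against 6.58 and 6.44 in adult replicates 2 and 3. Of the 35 members, 19 lay above the 95th percentile of the receptor signals on all 12 arrays, 14 on some arrays, and Mx1 and Mx2 on none.

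Most of the set was lowest in fetal cells and highest in aged cells. Tested with limma's F-test over the 4 stages, 28 of 35 members differed among stages, where 41.6% of all genes did. The fetal mean was the lowest of the 4 stage means for 29 of 35 members (82.9%, against 38.3% of all genes). The aged mean was the highest for 26 of 35 (74.3%, against 22.0% of all genes). The mean over the 35 members was 6.25, 6.22 and 6.21 on the fetal arrays, 7.09, 6.84 and 6.86 on the adolescent arrays, 7.09, 6.81 and 6.77 on the adult arrays, and 7.17, 7.43 and 7.38 on the aged arrays. Fetal arrays lay below all others, adolescent and adult arrays overlapped, and the aged arrays were the highest.

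**Figure D1:**
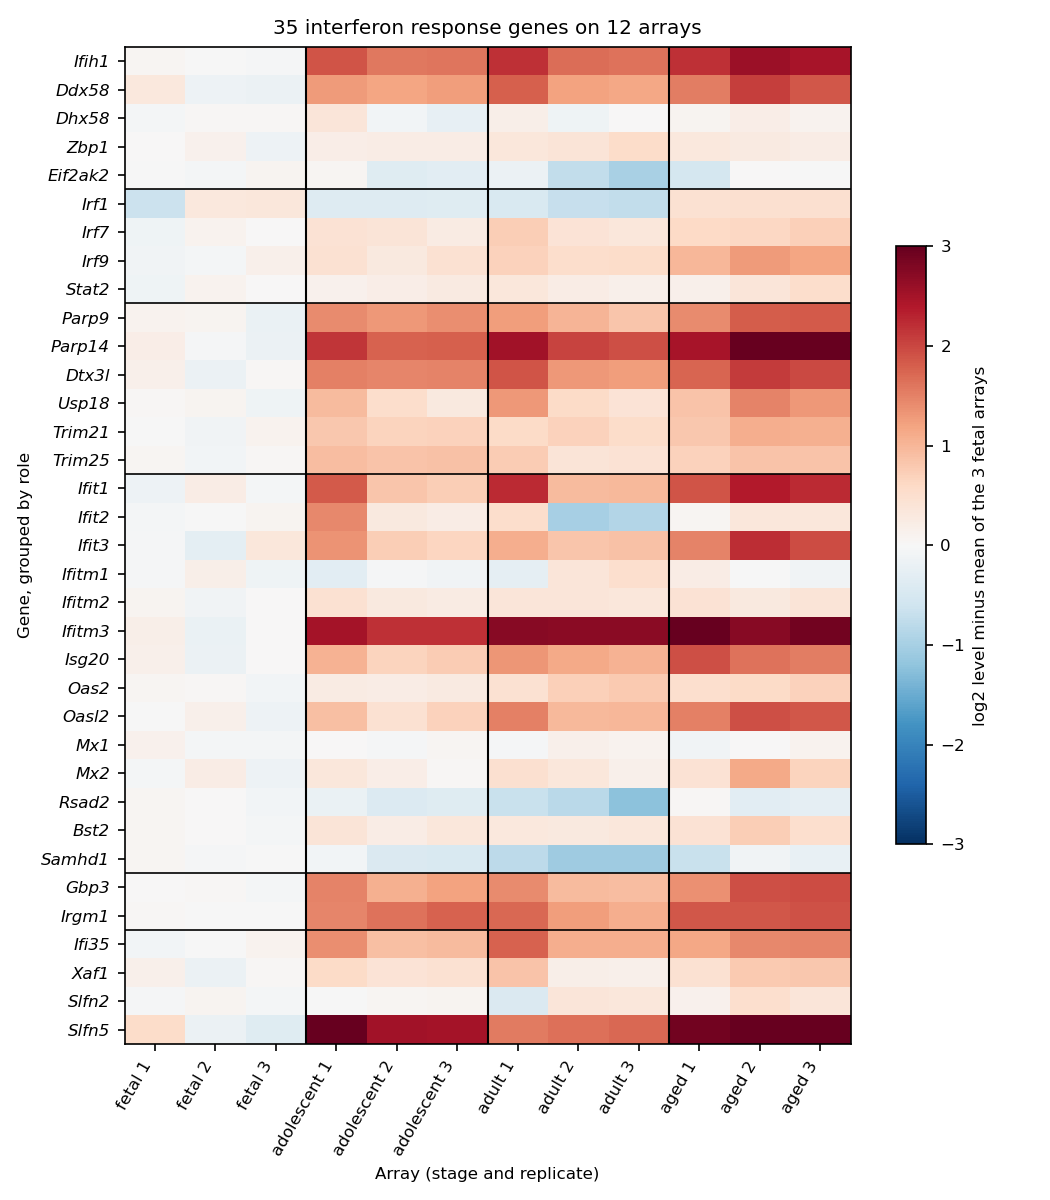
Each row is 1 of the 35 interferon response genes, grouped by role, and each column 1 of the 12 arrays. Colour gives the log2 level minus the mean of the 3 fetal arrays, with the colour scale ending at 3 in either direction; Ifitm3, Parp14 and Slfn5 were the most strongly raised after the fetal stage, while Rsad2, Samhd1 and Eif2ak2 were lower in adult than in fetal cells.

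From fetal to adolescent cells 20 members rose and none fell in limma's moderated test at a Benjamini-Hochberg adjusted p under 0.05, with 1 member lower at an unadjusted p under 0.05. Of all genes, 10.1% rose and 8.68% fell. The median member difference was 0.59 on the log2 scale, and that of all genes was 0.02. From adolescent to adult cells 2 members rose and 4 fell, where 4.56% of all genes rose and 15.2% fell, and the median difference was 0.03 for both the members and all genes. From adult to aged cells 7 members rose and none fell, also at an unadjusted p under 0.05, with 21 members higher at that unadjusted level. Here 3.28% of all genes rose and 0.216% fell, and the median was 0.45 for members and -0.01 for all genes.

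The same adult and aged arrays were also set directly against the fetal arrays. From fetal to adult cells 23 members rose and 4 fell (19.1% and 23.4% of all genes). From fetal to aged cells 26 rose and none fell, with 1 lower at an unadjusted p under 0.05 (16.4% and 19.4% of all genes). Comparisons that share a stage share its arrays, so their counts are not independent of each other.

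**Figure D2:**
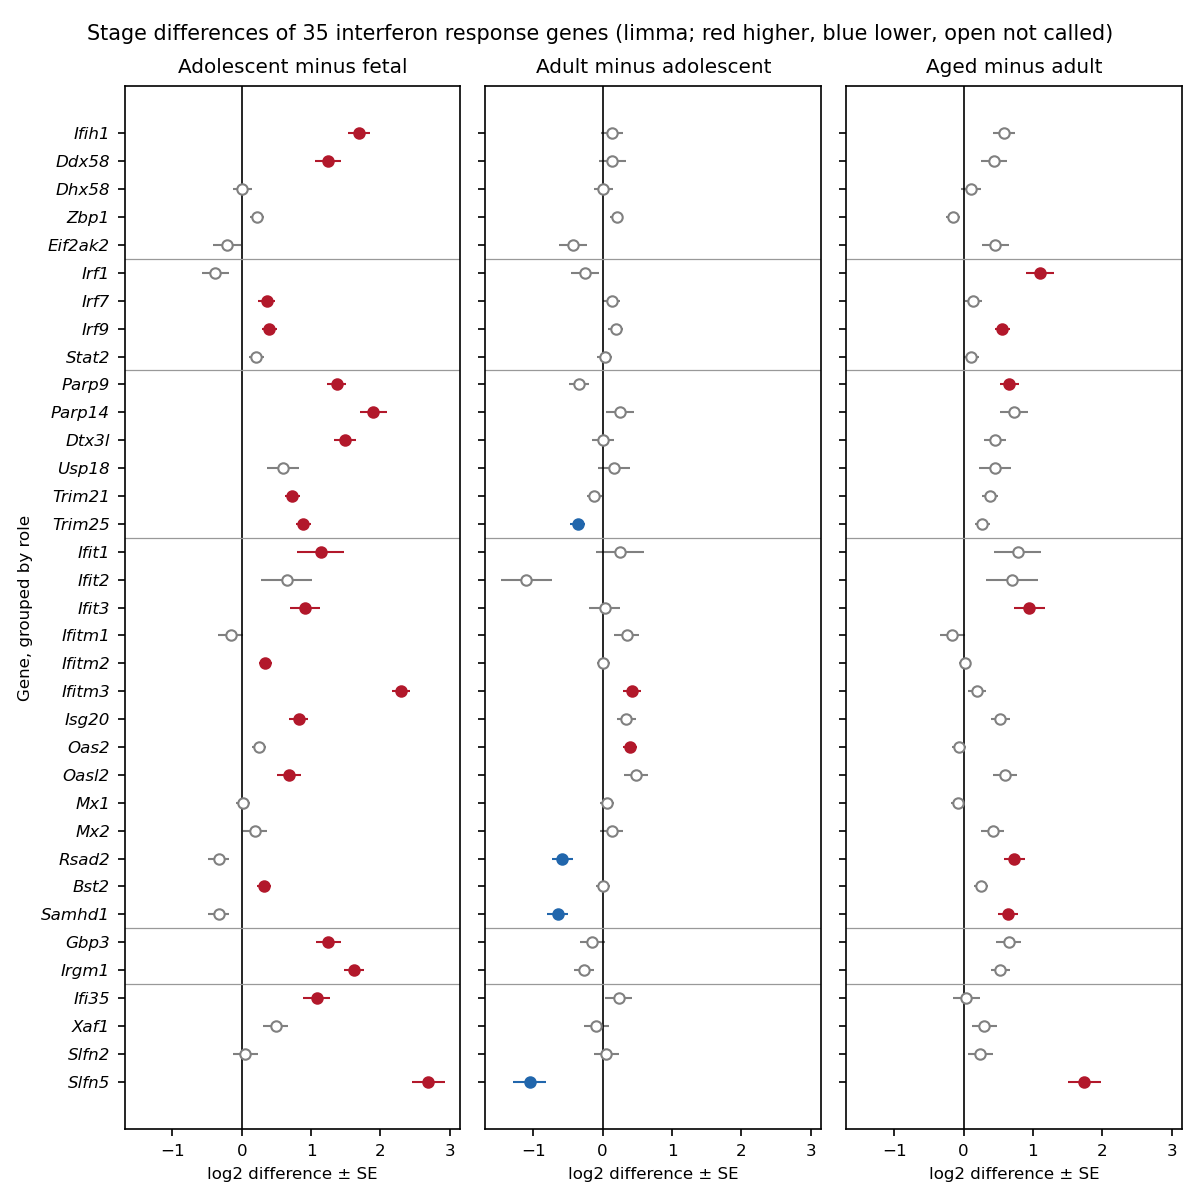
Differences between successive stages for the 35 genes, in log2 units with the standard error of the 4-stage limma fit, grouped by role in the same order as the array map. Filled red points rose, filled blue points fell and open points did not pass; 20 genes are red in adolescent minus fetal, 2 red and 4 blue in adult minus adolescent, and 7 red in aged minus adult.

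Of the 5 sensors of foreign nucleic acid, Ifih1 and Ddx58 rose from fetal to adolescent cells and the other 3 did not pass at that step. Ifih1, which encodes the sensor of long double-stranded RNA MDA5, stood at 5.77, 5.70 and 5.69 in fetal, 7.61, 7.30 and 7.33 in adolescent, 7.92, 7.39 and 7.34 in adult, and 7.92, 8.29 and 8.19 in aged cells. No fetal array overlapped any later array, whereas adolescent and adult arrays overlapped. The rise from fetal to adolescent was 1.69 ± 0.16 (SE, adjusted p = 5.72e-06, 3.23-fold), and aged exceeded fetal by 2.41 ± 0.16 (5.32-fold). Ddx58, which encodes RIG-I, a sensor of RNA with an uncapped end, rose by 1.24 ± 0.19 from fetal to adolescent cells (adjusted p = 0.000361). Its stage means were 6.71 ± 0.28, 7.96 ± 0.05, 8.10 ± 0.35 and 8.54 ± 0.26 (SD, n = 3). Aged exceeded adult cells by 0.58 ± 0.16 for Ifih1 and 0.44 ± 0.19 for Ddx58, and neither difference passed (adjusted p = 0.0618 and 0.21).

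Dhx58, a regulator of the RNA sensors also called LGP2, had stage means of 5.29 to 5.42 and passed in no comparison. Zbp1, which senses nucleic acid in the left-handed Z form, was 5.43 ± 0.14 in fetal and 5.85 ± 0.11 in adult cells, and rose by 0.42 ± 0.10 between them (adjusted p = 0.00476). Without the 3 arrays of raised receptor signal this rise was 0.33 and did not pass (adjusted p = 0.0606). Eif2ak2 encodes PKR, a kinase that halts translation when it binds double-stranded RNA. It fell by 0.64 ± 0.20 from fetal to adult cells (adjusted p = 0.023), from 6.80 ± 0.07 to 6.16 ± 0.41, with aged cells at 6.62 ± 0.31. Without the 3 arrays of raised receptor signal the difference was -0.18 and did not pass (adjusted p = 0.428), and it failed to pass under 6 of 16 alternatives. In the adult group Eif2ak2 read 6.61 on replicate 1, and 6.05 and 5.82 on replicates 2 and 3.

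Among the transcription factors Irf9 rose at the first and the last step. Irf9 is the DNA-binding partner of Stat2. It read 6.49, 6.54 and 6.74 in fetal, 7.05, 6.89 and 7.04 in adolescent, 7.29, 7.11 and 7.15 in adult, and 7.58, 7.86 and 7.78 in aged cells, so that no array of a stage overlapped an array of the next. The rise from fetal to adolescent was 0.40 ± 0.11 (adjusted p = 0.02) and from adult to aged 0.56 ± 0.11 (adjusted p = 0.0151), while adult exceeded adolescent cells by 0.19 ± 0.11 (adjusted p = 0.211). Stat2 read 7.14, 7.37 and 7.27 in fetal, 7.38, 7.47 and 7.54 in adolescent, 7.60, 7.49 and 7.41 in adult, and 7.42, 7.62 and 7.78 in aged cells. Neighbouring stages of Stat2 did not differ beyond their spread except that fetal and adolescent arrays did not overlap, and only aged against fetal passed (0.35 ± 0.11, adjusted p = 0.0262).

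Irf7, which amplifies the response by driving interferon alpha genes, read 5.40, 5.63 and 5.55 in fetal, 5.97, 5.92 and 5.78 in adolescent, 6.26, 5.94 and 5.86 in adult, and 6.12, 6.14 and 6.24 in aged cells. Its only rise between neighbouring stages was 0.36 ± 0.12 from fetal to adolescent (adjusted p = 0.048). Irf1, a factor also induced by interferon gamma, read 7.76, 8.71 and 8.73 in fetal, 8.02, 8.02 and 8.03 in adolescent, 7.94, 7.71 and 7.66 in adult, and 8.86, 8.87 and 8.87 in aged cells. It rose by 1.10 ± 0.20 from adult to aged (adjusted p = 0.0115), where the arrays did not overlap, and by 0.93 without the 3 arrays of raised receptor signal, which did not pass (adjusted p = 0.114).

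The 2 probe sets annotated to Irf1 disagreed in direction between fetal and adult cells. The brighter, used above, fell by 0.63 ± 0.20 and the dimmer rose by 0.51 ± 0.11, each past the threshold over all probe sets (adjusted p = 0.0267 and 0.00382). Fetal replicate 1, at 7.76 on the brighter probe set, overlapped the adult arrays. The direction of Irf1 between these stages is therefore not settled by these arrays. In aged compared with adult cells both were higher, by 1.10 and by 0.27, and the second did not pass (adjusted p = 0.212).

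All 6 measured modifiers of proteins were higher in adult and in aged than in fetal cells, where 19.1% and 16.4% of all genes rose. Between fetal and adolescent cells 5 of them rose, and 10.1% of all genes. Parp14, a mono-ADP-ribosyltransferase, read 5.31, 5.08 and 4.94 in fetal, 7.25, 6.87 and 6.91 in adolescent, 7.62, 7.13 and 7.04 in adult, and 7.58, 8.30 and 8.10 in aged cells. It rose by 1.90 ± 0.20 from fetal to adolescent (adjusted p = 1.71e-05, 3.73-fold) and stood 2.88 ± 0.20 higher in aged than in fetal cells (7.39-fold). Its fetal arrays lay below the 95th percentile of the receptor signals, so these folds may be understated. The adult and aged arrays overlapped, and their difference of 0.73 ± 0.20 did not pass (adjusted p = 0.0665).

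Parp9 and Dtx3l, which form a complex that joins ADP-ribosylation to ubiquitin ligase activity, lie beside each other and beside Parp14 on chromosome 16. Dtx3l read 6.12, 5.79 and 6.00 in fetal, 7.47, 7.43 and 7.46 in adolescent, 7.86, 7.28 and 7.23 in adult, and 7.71, 8.06 and 7.94 in aged cells, a rise of 1.49 ± 0.16 at the first step (adjusted p = 2.19e-05). Parp9 read 5.88, 5.85 and 5.58 in fetal, 7.19, 7.08 and 7.16 in adolescent, 7.03, 6.78 and 6.61 in adult, and 7.18, 7.59 and 7.62 in aged cells. It rose by 1.37 ± 0.14 (adjusted p = 1.58e-05) and again by 0.66 ± 0.14 from adult to aged cells (adjusted p = 0.0258). The 3 neighbours therefore shared the first rise, and of them only Parp9 passed at the last step; whether the last step differed between them was not tested.

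Trim21 and Trim25 are ubiquitin ligases, the first a receptor for antibody inside the cell and the second an activator of RIG-I. Trim21 rose by 0.73 ± 0.11 and Trim25 by 0.89 ± 0.11 from fetal to adolescent cells (adjusted p = 0.000296 and 8.31e-05). Trim25 then read 8.46, 8.40 and 8.42 in adolescent and 8.31, 7.92 and 7.98 in adult cells, a fall of 0.36 ± 0.11 (adjusted p = 0.0413). With the replicate number as a block in the fit of all stages, the fall did not pass (adjusted p = 0.0607). Pairing of arrays by replicate number was not established. Without the 3 arrays of raised receptor signal the fall was 0.12. Usp18, which removes Isg15 from proteins and damps receptor signalling, had stage means of 5.43 ± 0.11, 6.03 ± 0.33, 6.20 ± 0.48 and 6.65 ± 0.33, and rose from fetal to adult by 0.77 ± 0.23 (adjusted p = 0.0199).

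Of the 14 antiviral effectors, 7 rose from fetal to adolescent cells, where 10.1% of all genes rose. From fetal to adult cells 8 rose and 2 fell, where 19.1% of all genes rose and 23.4% fell. The Ifitm proteins sit in membranes and hinder the entry of enveloped viruses, and their 3 genes lie next to each other on chromosome 7. Ifitm3 read 8.03, 7.66 and 7.87 in fetal, 10.36, 10.04 and 10.05 in adolescent, 10.59, 10.56 and 10.56 in adult, and 10.97, 10.59 and 10.75 in aged cells. Fetal cells lay far below, and arrays of neighbouring later stages did not overlap, although adult and aged cells met at 10.59. The first rise was 2.30 ± 0.13 (4.92-fold, adjusted p = 8.33e-08), followed by 0.42 ± 0.13 from adolescent to adult (adjusted p = 0.0399). Aged exceeded adult cells by 0.20 ± 0.13 (adjusted p = 0.358).

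The neighbours of Ifitm3 behaved differently. Ifitm2 read 10.87, 10.67 and 10.79 in fetal, 11.24, 11.08 and 11.03 in adolescent, 11.14, 11.13 and 11.12 in adult, and 11.20, 11.08 and 11.16 in aged cells, a rise of 0.34 ± 0.09 at the first step (adjusted p = 0.0224). Ifitm1 read 6.26, 6.46 and 6.16 in fetal, 5.97, 6.26 and 6.18 in adolescent, 6.03, 6.65 and 6.79 in adult, and 6.52, 6.29 and 6.19 in aged cells. All 4 stages of Ifitm1 overlapped, and it passed in no comparison. The other probe sets of both genes gave like values at the first step, 0.33 and 0.36 for Ifitm2 and -0.11 for Ifitm1. The 3 genes are similar in sequence, and signal shared between their probe sets was not tested.

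The Ifit proteins bind foreign RNA and block its translation. Ifit3 read 5.02, 4.77 and 5.39 in fetal, 6.41, 5.80 and 5.71 in adolescent, 6.15, 5.89 and 5.95 in adult, and 6.54, 7.28 and 7.02 in aged cells. It rose by 0.91 ± 0.22 from fetal to adolescent (adjusted p = 0.0105) and by 0.95 ± 0.22 from adult to aged cells (adjusted p = 0.0341), with no overlap between arrays at either step. A near-identical copy of the gene makes its probe set uncertain. Ifit1 read 4.33, 4.72 and 4.42 in fetal, 6.34, 5.32 and 5.23 in adolescent, 6.73, 5.45 and 5.46 in adult, and 6.37, 6.88 and 6.72 in aged cells, a rise of 1.14 ± 0.34 at the first step (adjusted p = 0.0321). Ifit1 lay above the 95th percentile of the receptor signals on only 5 arrays.

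Ifit2, next to Ifit3 on chromosome 19, had the widest spread within a stage of all members. It read 6.83, 6.87 and 6.97 in fetal, 8.33, 7.18 and 7.12 in adolescent, 7.42, 5.89 and 6.02 in adult, and 6.95, 7.24 and 7.23 in aged cells. Its SD was 0.68 in adolescent and 0.85 in adult cells, with replicate 1 high in both. It passed in no comparison, and adult lay 1.10 ± 0.37 below adolescent cells (adjusted p = 0.0533).

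Rsad2 and Samhd1 were, with Eif2ak2 and Irf1, the 4 members that fell between fetal and adult life, against 23 that rose. Rsad2 encodes viperin, which makes a chain-terminating nucleotide, and Samhd1 degrades the nucleotides needed for DNA synthesis. Rsad2 read 7.15, 7.10 and 7.01 in fetal, 6.88, 6.67 and 6.72 in adolescent, 6.42, 6.27 and 5.86 in adult, and 7.13, 6.77 and 6.82 in aged cells. Samhd1 read 9.04, 8.94 and 8.97 in fetal, 8.89, 8.55 and 8.53 in adolescent, 8.19, 7.91 and 7.92 in adult, and 8.31, 8.87 and 8.77 in aged cells. For both genes all 3 adult arrays lay below every array of every other stage. From fetal to adult cells Rsad2 fell by 0.91 ± 0.15 and Samhd1 by 0.98 ± 0.15 (adjusted p = 0.000292 and 0.000237), and from adult to aged cells they rose by 0.73 ± 0.15 and 0.64 ± 0.15 (adjusted p = 0.0166 and 0.0373). Without the 3 arrays of raised receptor signal the second difference was 0.38 for Rsad2, which did not pass (adjusted p = 0.0838), and 0.63 for Samhd1, which did (adjusted p = 0.0342). Aged and fetal cells did not differ past the threshold in either (adjusted p = 0.406 and 0.114).

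**Figure D3:**
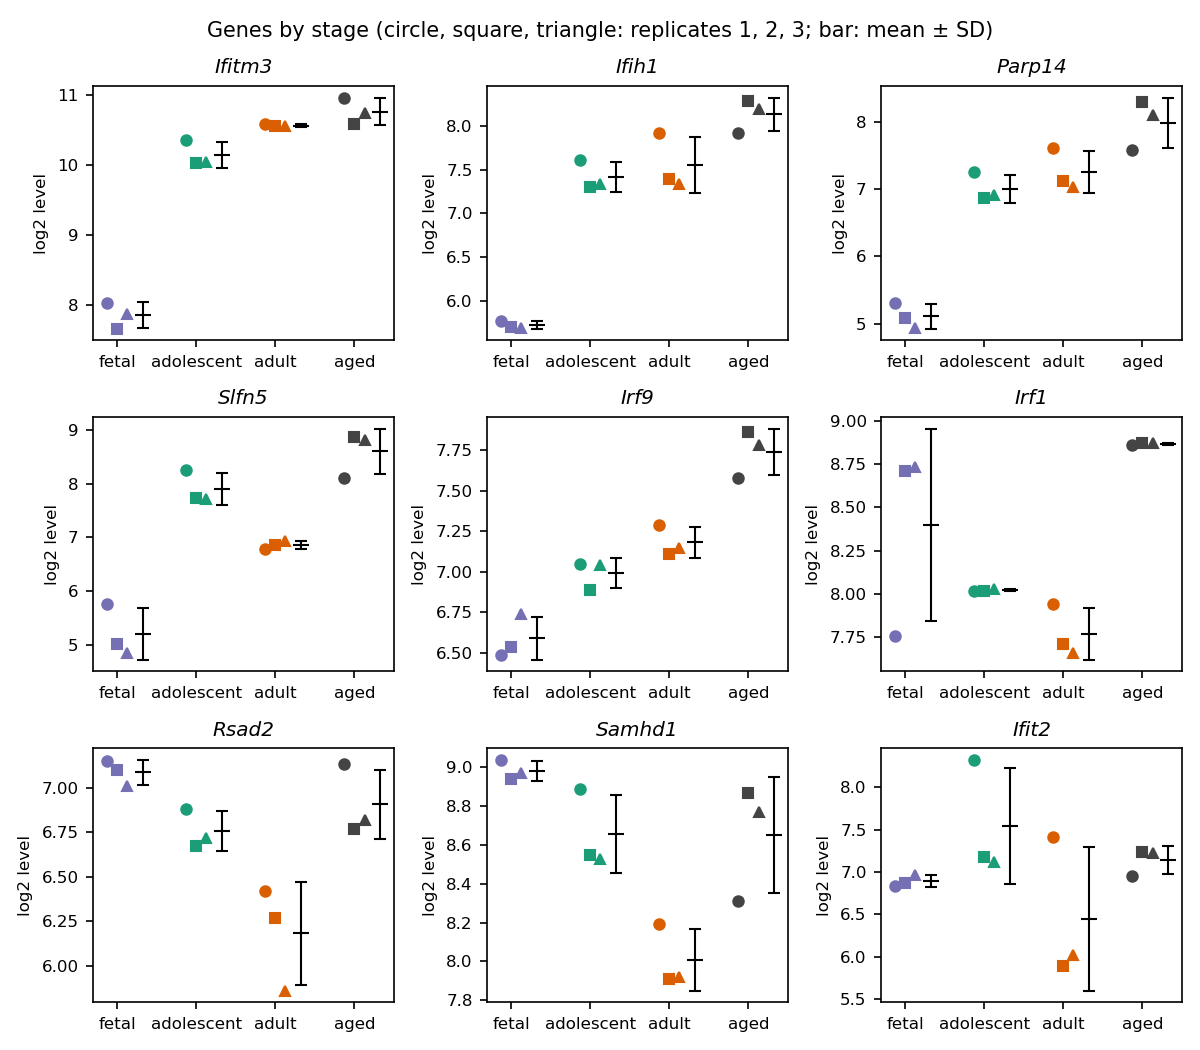
Log2 level of 9 genes on each array by stage, with circle, square and triangle for replicates 1, 2 and 3 and a bar for mean ± SD (n = 3); each panel has its own vertical axis, which does not start at 0. Ifitm3, Ifih1, Parp14 and Slfn5 lie lowest in fetal cells, Rsad2 and Samhd1 lie lowest in adult cells, and Ifit2 is highest on replicate 1 in adolescent and adult cells.

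The remaining effectors include enzymes that act on RNA. Isg20, an exonuclease, had stage means of 6.32 ± 0.16, 7.14 ± 0.20, 7.48 ± 0.15 and 8.01 ± 0.20, and rose by 0.82 ± 0.14 at the first step (adjusted p = 0.000973). Oas2, which makes the oligoadenylate that activates RNase L, rose from 5.58 ± 0.02 in adolescent to 5.98 ± 0.17 in adult cells (0.40 ± 0.10, adjusted p = 0.0172). Its increase was 0.21 without the 3 arrays of raised receptor signal, which did not pass (adjusted p = 0.239). Oasl2, an oligoadenylate synthetase-like gene, rose by 0.68 ± 0.17 from fetal to adolescent cells (adjusted p = 0.0129) and averaged 7.55 ± 0.22 in aged cells against 5.79 ± 0.15 in fetal cells. Bst2, the tetherin that holds budding virus at the cell surface, rose by 0.32 ± 0.10 at the first step (adjusted p = 0.043).

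Mx1 and Mx2 encode dynamin-like GTPases that trap viral particles. C57BL/6 mice carry a defective Mx1 gene. Mx1 had stage means of 3.71 to 3.80 and passed in no comparison. Mx2 had stage means of 3.95 to 4.69 and was 0.74 ± 0.17 higher in aged than in fetal cells (adjusted p = 0.00367), although it was not above the 95th percentile of the receptor signals on any array.

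Both measured GTPases that guard membranes against intracellular pathogens rose from fetal to adolescent cells. Irgm1, a regulator of autophagy, read 6.36, 6.31 and 6.31 in fetal, 7.79, 7.96 and 8.09 in adolescent, 8.04, 7.59 and 7.42 in adult, and 8.20, 8.19 and 8.23 in aged cells, a rise of 1.62 ± 0.14 (3.08-fold, adjusted p = 3.29e-06). Gbp3, a guanylate-binding protein, read 5.28, 5.30 and 5.21 in fetal, 6.75, 6.34 and 6.47 in adolescent, 6.68, 6.22 and 6.19 in adult, and 6.63, 7.20 and 7.21 in aged cells, a rise of 1.25 ± 0.18 (adjusted p = 0.000208). In neither gene did a fetal array overlap a later one, and the fetal arrays of Gbp3 lay below the 95th percentile of the receptor signals. Neither passed between adult and aged cells (0.53 ± 0.14 and 0.65 ± 0.18, adjusted p = 0.0613 and 0.065).

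Slfn5, of the Schlafen family of nucleic acid-binding proteins, rose, fell and rose again over the 4 stages. It read 5.76, 5.03 and 4.85 in fetal, 8.25, 7.74 and 7.72 in adolescent, 6.78, 6.86 and 6.93 in adult, and 8.11, 8.87 and 8.81 in aged cells. It rose by 2.69 ± 0.24 (6.45-fold, adjusted p = 5.22e-06), fell by 1.05 ± 0.24 in adult cells (adjusted p = 0.0108) and then increased by 1.74 ± 0.24 in aged cells (3.34-fold, adjusted p = 0.00241). The adult arrays lay between the fetal and the other arrays without overlap. Fetal replicates 2 and 3 were below the 95th percentile of the receptor signals.

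The other induced genes changed less. Ifi35, a leucine zipper protein, had stage means of 6.21 ± 0.09, 7.29 ± 0.27, 7.52 ± 0.40 and 7.57 ± 0.17, and rose by 1.08 ± 0.19 at the first step (adjusted p = 0.0011). Xaf1, an antagonist of the apoptosis inhibitor XIAP, passed only in aged against fetal cells (0.69 ± 0.18, adjusted p = 0.0077). Slfn2, which is needed for T cell quiescence, had stage means of 5.26 to 5.60 and passed in no comparison.

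Within a stage, replicate 1 stood apart across the set. Replicate 1 was the highest of the 3 arrays for 27 of 35 members in adolescent cells and for 27 of 35 in adult cells, where the same held for 45.3% and 44.2% of all genes. In aged cells replicate 1 was the lowest for 28 of 35 members, against 39% of all genes. The median member on replicate 1 differed from the mean of replicates 2 and 3 by 0.05 in fetal, 0.18 in adolescent, 0.28 in adult and -0.29 in aged cells, and the medians of all genes lay between -0.03 and 0.04.

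Leaving out single arrays moved the 2 later steps. From adult to aged cells, 24 members passed without adult replicate 1 (23 rose and 1 fell) and 13 without aged replicate 1. The share of all genes passing rose there too, from 3.5% with all arrays to 39.3% and 11.1%. The count was 2 without adult replicate 2, 1 without adult replicate 3, 2 without aged replicate 2 and 1 without aged replicate 3. Of all genes, 1.07% to 1.45% passed in these fits. From adolescent to adult cells, 13 passed without adult replicate 1 (4 rose and 9 fell), where 54% of all genes passed against 19.8% with all arrays. The count was 1 without adolescent replicate 1, 3 without adolescent replicate 2, 3 without adolescent replicate 3, 2 without adult replicate 2 and 2 without adult replicate 3. In these fits 9.41% to 12.4% of all genes passed. The direction of this step also depended on scaling: the 2 rises and 4 falls became 8 and 3 with repeated quantile normalization, and 5 and 3 after centring the arrays on their medians. The share of all genes passing was 19.9% and 21.6% in these settings. None of the 6 changes from adolescent to adult and none of the 7 rises from adult to aged passed in every alternative. When the closely correlated replicates 2 and 3 were averaged into 1 sample per stage, 14 members still rose from fetal to adolescent cells, and 0 passed in limma's test at either later step, with 4 and 8 at an unadjusted p under 0.05. Of all genes, 7.38% passed at the first step, 1.62% from adolescent to adult and 0.01% from adult to aged.

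The step from fetal to adolescent cells was less dependent on single arrays, with 14 to 17 members passing when any 1 array of these stages was left out. The share of all genes passing was 13.5% to 16.7% in these fits, against 18.8% with all arrays. Ifih1, Ddx58, Parp9, Parp14, Dtx3l, Trim21, Trim25, Ifitm3, Isg20, Gbp3, Irgm1, Ifi35 and Slfn5 passed under each of 16 alternatives, which is 13 of the 20. Of the other 7, Irf7 and Bst2 each failed to pass under 10 of the 16, Ifit1 and Ifitm2 under 6, Irf9 under 5, Oasl2 under 3 and Ifit3 under 1. Without the 3 arrays of raised receptor signal, 23 members rose and 2 fell at this step, where 29.6% of all genes passed. From adolescent to adult none of the 6 called changes passed without those arrays (adjusted p = 0.0562 for Slfn5 to 0.54 for Trim25), and 4 other members did. Of all genes, 7.95% passed there. From adult to aged 6 members rose without those arrays, and of the 7 called rises those of Irf1, Ifit3 and Rsad2 did not pass. The share of all genes passing there was 8.07%.

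Markers of endothelial cells also rose at the first and the last step. From adolescent to adult cells their median difference was -0.84, against 0.03 for the members, of which 2 rose and 4 fell. Slfn5, 1 of these 4, fell by 1.05. Its stage means, like the mean of these markers, went up, down and up again. The 13 markers averaged 7.60, 6.83 and 6.79 on the fetal arrays, 8.83, 8.23 and 8.28 on the adolescent arrays, 7.67, 7.65 and 7.69 on the adult arrays, and 8.41, 9.00 and 8.92 on the aged arrays. From fetal to adolescent cells 12 of 13 rose (10.1% of all genes), from adolescent to adult 7 fell (15.2%), and from adult to aged 8 rose (3.28%). Between fetal and adult cells, where 23 members rose, 3 of the 13 endothelial markers rose and none fell (19.1% and 23.4% of all genes). Pecam1, a defining marker, had stage means of 7.08 ± 0.63, 8.57 ± 0.47, 7.55 ± 0.20 and 8.95 ± 0.54. None of these markers' part in the stage differences of the interferon response genes was tested. In bulk samples, fewer cells of a type and less RNA per cell cannot be told apart.

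Markers of immune cells, of muscle support cells and of division were measured in the same way, and their part in the results was not tested. The 12 macrophage markers averaged 6.05 to 6.80 over the arrays, with 1 rising and 1 falling from fetal to adolescent cells, and the 9 lymphocyte markers averaged 4.88 to 5.52, with none passing at any step between neighbouring stages. Set directly against fetal cells, 6 lymphocyte markers rose in adult and 3 in aged cells, and none fell. Of all genes, 19.1% and 16.4% rose in these comparisons. The lymphocyte markers averaged 4.92, 5.08 and 4.88 on the fetal arrays and 5.09 on adult replicate 1. On adult replicates 2 and 3, both arrays of raised receptor signal, they averaged 5.50 and 5.52. The 8 pericyte markers averaged 7.79 to 8.08 on the fetal arrays and 8.56 to 9.21 on the later arrays, with 6 rising and 1 falling from fetal to adolescent cells and 3 rising from adult to aged. The 7 fibroblast markers averaged 8.22 to 9.26, with 2 rising and 3 falling at the first step, and 5 of 6 mast cell markers fell at that step. There 10.1% of all genes rose and 8.68% fell, and 3.28% rose from adult to aged cells. The macrophage marker that rose from fetal to adolescent cells was the lysozyme Lyz2, by 1.89 ± 0.29 (adjusted p = 0.00044). The macrophage marker that fell was Cd68, by 0.79 ± 0.18 (adjusted p = 0.00714), and the median difference of the 12 was 0.02. The 5 genes of the cell cycle averaged 10.07, 10.39 and 10.44 in fetal, 9.63, 9.60 and 9.58 in adolescent, 7.90, 6.00 and 5.83 in adult, and 6.59, 5.66 and 5.51 in aged cells. They were higher on replicate 1 than on replicates 2 and 3 in both adult and aged cells.

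**Figure D4:**
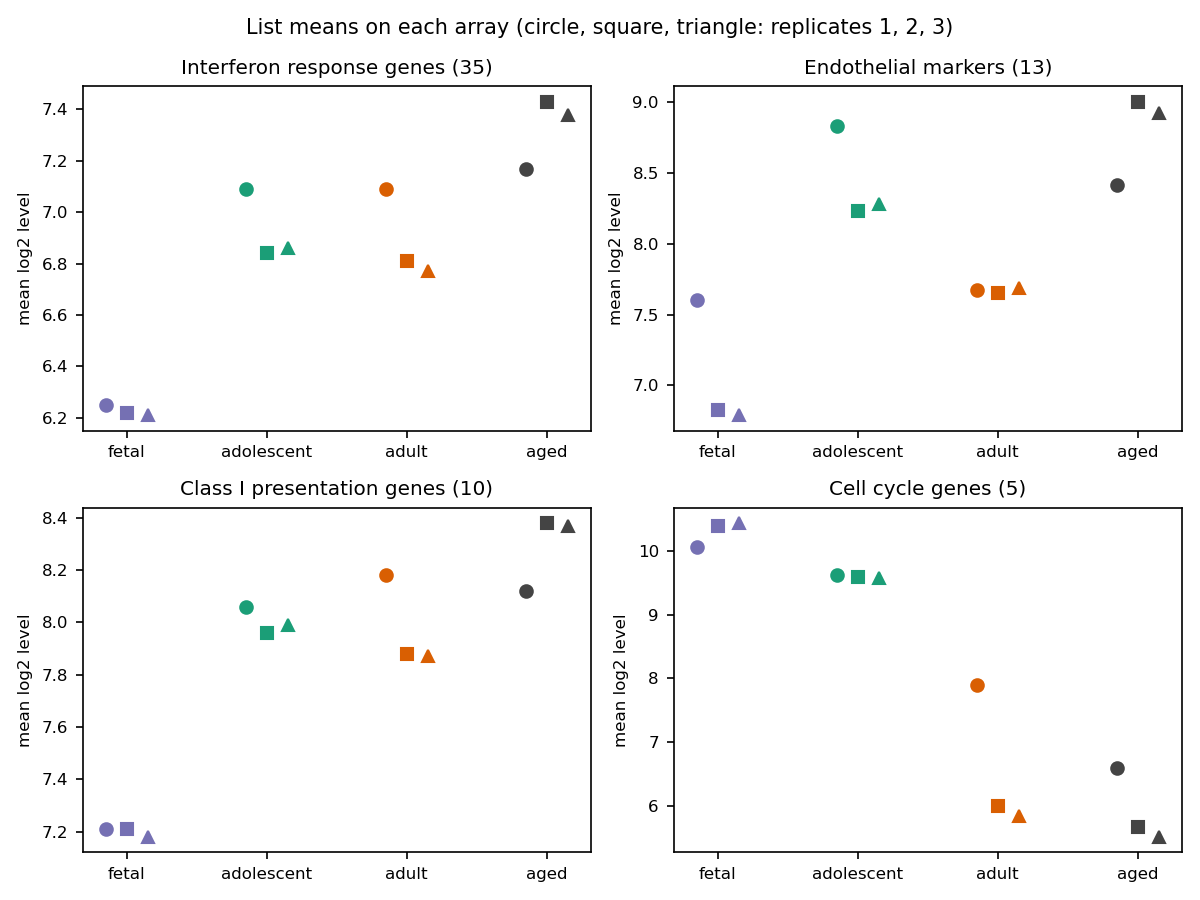
Mean log2 level of 4 gene lists on each of the 12 arrays, with circle, square and triangle for replicates 1, 2 and 3 of a stage; the panels have their own vertical axes, which do not start at 0. The interferon response genes and the class I genes are lowest on the fetal arrays, the endothelial markers fall from adolescent to adult and rise again in aged cells, and the cell cycle genes decline.

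Upstream of the set, 4 receptor chains rose after the fetal stage. Of the measured interferon genes, several of which lay within the range of the receptor signals used as a floor, only Ifnl2 passed in a comparison. Of 13 measured ligands and receptors, 4 rose and none fell from fetal to adolescent cells, also at an unadjusted p under 0.05. At this step 10.1% of all genes rose and 8.68% fell. The interferon gamma receptor chain Ifngr1 rose by 1.17 ± 0.12 (adjusted p = 1.01e-05), and Il10rb, Ifnar2 and Ifngr2 by 0.64, 0.39 and 0.39. Ifnb1, the gene for interferon beta, had stage means of 4.41 to 4.56 and passed in no comparison. On every array Ifnb1, Ifna4, Ifnk and Ifne lay below the percentile of the olfactory and vomeronasal receptor signals used above. For these genes the lack of a passing difference therefore does not show that expression was unchanged. From adolescent to adult cells Ifngr2 fell by 0.49 ± 0.10 (adjusted p = 0.0064) and Ifnl2, an interferon lambda gene, rose by 0.57 ± 0.14 (adjusted p = 0.0137). The stage means of Ifngr2 were 8.82 ± 0.02, 9.21 ± 0.12, 8.72 ± 0.13 and 8.57 ± 0.11 (SD), so its adult and aged means lay below the fetal mean. Between adult and aged cells none of the 13 passed in limma's test, with 3 higher and 4 lower at an unadjusted p under 0.05.

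Of 11 measured kinases and further transcription factors, 2 rose from fetal to adolescent cells, Irf2 by 0.87 ± 0.17 and Irf8 by 0.52 ± 0.11 (adjusted p = 0.00272 and 0.00498). None fell, also at an unadjusted p under 0.05. At this step 10.1% of all genes rose and 8.68% fell. Nlrc5, the activator of class I genes, rose by 0.65 ± 0.21 from adolescent to adult cells (adjusted p = 0.0499). It read 8.27, 8.53 and 8.40 in adolescent and 8.42, 9.39 and 9.33 in adult cells. Adult replicate 1 thus lay within the adolescent range, and replicates 2 and 3 were arrays of raised receptor signal. Nlrc5 had 19 probe sets, of which the brightest was used, and it did not pass the F-test over the 4 stages (adjusted p = 0.0619). None of the 11 passed from adult to aged cells, with 4 higher and 1 lower at an unadjusted p under 0.05.

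Of 15 further genes of nucleic acid sensing, 7 rose and 1 fell from fetal to adolescent cells, where 10.1% of all genes rose and 8.68% fell. Tlr3, the endosomal receptor for double-stranded RNA, rose by 1.94 ± 0.29, Zc3hav1, which binds viral RNA, by 1.44 ± 0.17, the adaptor Myd88 by 1.04 ± 0.17 and Sting1, the adaptor of DNA sensing, by 0.62 ± 0.15 (adjusted p = 0.000341, 6.1e-05, 0.000575 and 0.0117). Adar, which edits double-stranded RNA, fell by 0.32 ± 0.10 (adjusted p = 0.0309). From adult to aged cells Sting1 rose by 0.64 ± 0.15 and Adar by 0.43 ± 0.10 (adjusted p = 0.0388 and 0.0278). From adolescent to adult cells the DNA sensor Cgas fell by 0.69 ± 0.16 and the ubiquitin ligase Traf6 by 0.56 ± 0.12 (adjusted p = 0.00872 and 0.00608).

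Of the 9 brakes on cytokine signalling none passed from fetal to adolescent cells in limma's test, with 2 higher and none lower at an unadjusted p under 0.05. Socs3, an inhibitor of Janus kinases that many cytokines induce, averaged 9.13 ± 0.40, 8.76 ± 0.08, 9.79 ± 0.11 and 10.61 ± 0.26 over the stages. It rose by 1.03 ± 0.18 from adolescent to adult and by 0.82 ± 0.18 from adult to aged cells (adjusted p = 0.00214 and 0.0266). Pias2, an inhibitor of STAT proteins, fell by 0.46 ± 0.11 from adolescent to adult cells (adjusted p = 0.0116).

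Genes of class I antigen presentation, which interferon also induces, shared the first step. Of 10 measured, 6 rose from fetal to adolescent cells, where 10.1% of all genes rose. Among the 6, Erap1 rose by 1.80 ± 0.23, Tap2 by 1.41 ± 0.11 and Tap1 by 1.02 ± 0.10. None of the 10 passed from adult to aged cells, with 4 higher at an unadjusted p under 0.05.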

How the data were processed

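Satellite cell RNA (100 ng per sample, amplified with the Ambion WT Expression kit) was read on 12 single-colour Affymetrix arrays. The deposited log2 values are RMA output, made by the authors with Affymetrix Expression Console 1.2.1.20, per the submitters' processing notes. They were used as deposited, with no new background correction. The genome build is not given in the sources used here. For arrays, their number limits the precision.

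Of 35556 probe sets, 21789 carried 1 gene symbol, 1621 several and 12146 were not named here. The 21789 gave 19938 genes, of which 999 had several probe sets and were represented by the brightest. All 12 arrays entered 1 limma fit of the 4 stage means (limma 3.58.1, R 4.3.3, 8 residual degrees of freedom), and p was adjusted by Benjamini-Hochberg over 19938 genes with a threshold of 0.05. Rose and fell refer to differences past that threshold.

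The members, the pathway and marker lists and the tests were chosen with earlier results of these data known. Values on every array are given for members with the largest differences that passed, for Irf7, Irf9, Stat2 and the Ifitm genes, and for members opposite to the others; Ifit2 was added after its values were seen. Up to 4 pathway genes per list and comparison were named by smallest p. Deviations from the stage means correlated between equal replicate numbers of adolescent and adult arrays at 0.362, 0.317 and 0.239, all over 0.1, and for adult and aged arrays at -0.435, -0.393 and -0.237. Unlike numbers also correlated, adolescent replicate 2 with adult replicate 3 at 0.293 and adolescent replicate 3 with adult replicate 2 at 0.240. Replicate 1 of either of these stages correlated with replicates 2 and 3 of the other at -0.336 to -0.264. The values thus set replicate 1 apart and do not establish pairing by number. The labels state no pairing. The replicate number was tried as a block in the fit of all stages. Protein sequences were not used here. The methods were tested on simulated data.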

Additional observations from a re-analysis of the deposited data

How the results depend on the processing

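No called member difference changed direction under the alternatives tried, in which each gene kept its brightest probe set or the mean of its probe sets; the dimmer probe set of Irf1 alone rose by 0.51 from fetal to adult where the brighter fell by 0.63. Of the called members, 13 of 20 from fetal to adolescent, 0 of 6 from adolescent to adult, 0 of 7 from adult to aged, 21 of 27 from fetal to adult and 22 of 26 from fetal to aged passed in every alternative. From adolescent to adult the count of 6 (19.8% of all genes) became 11 with repeated quantile normalization (19.9%), 18 with array weights estimated gene by gene (72.6%), 2 in a fit of the 2 stages alone (10.8%), and 1 to 13 without single arrays (9.41% to 54%). From adult to aged the count of 7 (3.5% of all genes) became 11 with quantile normalization (3.85%), 12 of 29 with a filter on dim genes (6.76%), 29 with array weights (68.5%), 2 in the 2-stage fit (0.883%) and 1 to 24 without single arrays (1.07% to 39.3%). The weights were 0.09 for adult replicate 1 and 0.19 for aged replicate 1. With replicates 2 and 3 of each stage averaged, tried after their closeness was seen, 18 members passed the F-test, 14 rose from fetal to adolescent, and 0 passed in limma's test at either later step, with 4 and 8 at an unadjusted p under 0.05. Of all genes, 17.2% passed the F-test and 7.38% passed from fetal to adolescent in that setting. The cause of these shifts was not tested. With the replicate block, 18, 7, 5, 27 and 25 members passed in the 5 comparisons in the same order. In each of these comparisons a smaller share of all genes passed with the block than without it. From adolescent to adult the share of members passing with the block was close to that of all genes. The block ended the calls of Irf7 and Bst2 from fetal to adolescent, Trim25 from adolescent to adult, Parp9, Ifit3 and Samhd1 from adult to aged, and Zbp1 from fetal to aged. Centring on array medians moved the median of all genes from adolescent to adult from 0.03 to 0.13. Members near the receptor signal have differences that the arrays may understate.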
